A study of Mus musculus with 6 samples.

Results

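In E14 mouse embryonic stem cells, a minority of CpG-rich sequence is neither free of methylation nor clearly methylated but carries a trace of it. Neighbouring CpG cytosines at most 100 bp apart were joined into runs of at least 5 cytosines, over the 369208 autosomal cytosines that had a level in all 6 libraries. The trace-methylated runs were chosen by their mean level in the Dnmt3b knockdown library, which had to lie between 3% and 20%. Of 22524 runs, called clusters here, 2466 (10.9%) met the rule, and they held 24885 cytosines. Methylation was measured by reduced representation bisulfite sequencing (RRBS), in which the enzyme MspI cuts DNA at CCGG and bisulfite marks unmethylated cytosines, so that a level is the share of reads that stayed cytosine. The same E14 stem cells, all expressing a short hairpin RNA (shRNA), gave 1 library each for Tet1 and Tet2 together, Dnmt1, Dnmt3a, Dnmt3b, Dnmt3a and Dnmt3b together, and a control shRNA. The Dnmt1 sample is titled Dnmt1a and labelled Dnmt1 in its treatment field. No RNA or protein level of any target was examined here, so how far each enzyme was depleted is not known.

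With 1 library in each group there is no replicate error, no test between groups and no p-value. Each mean is given with the SD of its values on the 19 autosomes, a measure of spread along the genome. The files give levels without read counts, and with depth unknown no counting interval can be given. Mitochondrial DNA gave the background, since its 94 cytosines averaged between 0% (control) and 0.0660% (Dnmt1 knockdown). A mean level of a few percent does not tell a few heavily methylated molecules from many molecules with single methylated sites, nor partial depletion in every cell from full depletion in some. The Dnmt3b library chose the clusters, so its levels within them are a description and support nothing, and its difference from control is touched by the choice.

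DNMT3A and DNMT3B are the writers that add methyl groups to unmethylated CpG sites, while DNMT1 copies existing methylation onto the new strand after replication. TET1 and TET2 are erasers that oxidise 5-methylcytosine, the first step on a route back to plain cytosine. CpG islands, the CpG-dense stretches at many promoters, are mostly unmethylated, and their edges, called shores, pass over into methylated DNA. Bisulfite reads 5-methylcytosine and 5-hydroxymethylcytosine alike as cytosine, and reads the further oxidised forms as unmethylated.

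The bases around each cytosine placed some clusters at gene starts. A cluster was placed where its cytosines and their flanking bases fitted a single window from 250 bases before to 50 bases after the start of a RefSeq gene on the same chromosome, with at least 5 cytosines in the window. This placed 4094 clusters of all levels, 233 of them trace-methylated. The bases are shown for 5 promoters, picked after their values were seen, at which the Dnmt3a knockdown lay far below control (Bcl6, Hcrtr1 and Irf4) or the Tet1 and Tet2 knockdown far above it (Far2 and Rasl2-9). The pick was limited to named genes whose cluster lay wholly inside the window, had at least 3 cytosines on both strands and had a mean at least 5 points from control. Promoters outside these limits can have larger differences, such as Prdm12 and Lhx3 described further on, whose clusters run past the window. BCL6 is a transcriptional repressor of the germinal centre, HCRTR1 a receptor for orexin peptides, IRF4 a transcription factor of lymphocytes, and FAR2 an enzyme that reduces fatty acyl-CoA to fatty alcohol. The sequences are from RefSeq (GRCm38.p6), run 5′ to 3′ on the gene's strand and reach from the first to the last cytosine of the cluster with 2 bases on either side. Capitals mark the CpG sites whose level was read on at least 1 strand.
Bcl6, chr16:23981365-23981478, minus strand: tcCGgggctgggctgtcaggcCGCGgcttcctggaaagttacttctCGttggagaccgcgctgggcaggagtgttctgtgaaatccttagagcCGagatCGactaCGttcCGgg
Hcrtr1, chr4:130139322-130139406, minus strand: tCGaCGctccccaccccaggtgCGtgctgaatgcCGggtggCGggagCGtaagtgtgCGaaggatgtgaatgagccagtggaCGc
Irf4, chr13:30749065-30749204, plus strand: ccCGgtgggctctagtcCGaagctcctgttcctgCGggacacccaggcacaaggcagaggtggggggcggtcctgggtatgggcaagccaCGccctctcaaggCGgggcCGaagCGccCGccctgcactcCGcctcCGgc
Far2, chr6:148047277-148047387, plus strand: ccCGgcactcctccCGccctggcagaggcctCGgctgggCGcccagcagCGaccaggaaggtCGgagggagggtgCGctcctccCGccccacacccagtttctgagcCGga
Rasl2-9, chr7:5125986-5126109, minus strand: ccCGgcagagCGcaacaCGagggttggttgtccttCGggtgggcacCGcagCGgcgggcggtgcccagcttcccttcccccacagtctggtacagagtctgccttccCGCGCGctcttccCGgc

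All 5 of these clusters lie before the start site in the RefSeq table. In the files' own mm9 coordinates they are chromosome 16, 23981453 to 23981562 (Bcl6), chromosome 4, 129816568 to 129816648 (Hcrtr1), chromosome 13, 30840936 to 30841071 (Irf4), chromosome 6, 147995801 to 147995907 (Far2), and chromosome 7, 5077590 to 5077709 (Rasl2-9). Bcl6 read 18.4% in the Tet1 and Tet2 knockdown, 1.52% in the Dnmt1 knockdown, 6.96% in the Dnmt3a knockdown, 9.94% in the Dnmt3b knockdown and 5.06% in the double knockdown, against 18.2% in control. Its 8 cytosines were all at or below 4.1% in the Dnmt1 knockdown, and in control they reached 25%. Hcrtr1 read 18.1%, 1.43%, 5.51%, 15.4% and 5.06% in the same order of knockdowns, against 15.5% in control. The cytosine at position -197 from the Hcrtr1 start was the most methylated one of its cluster, at 41.1% in the Tet1 and Tet2 knockdown and 13.8% in the Dnmt3a knockdown, against 40.4% in control. Irf4 read 3.85% in the Dnmt3a knockdown and 3.90% in the double knockdown, against 10.6% in control, and its Tet1 and Tet2 value of 10.7% stood next to control. At Far2 the Tet1 and Tet2 knockdown lay well above control, with 21.1% against 8.41%. Rasl2-9 read 12.4% in the Tet1 and Tet2 knockdown and 1.03% in the Dnmt3a knockdown, against 4.52% in control.

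**Figure D1:**
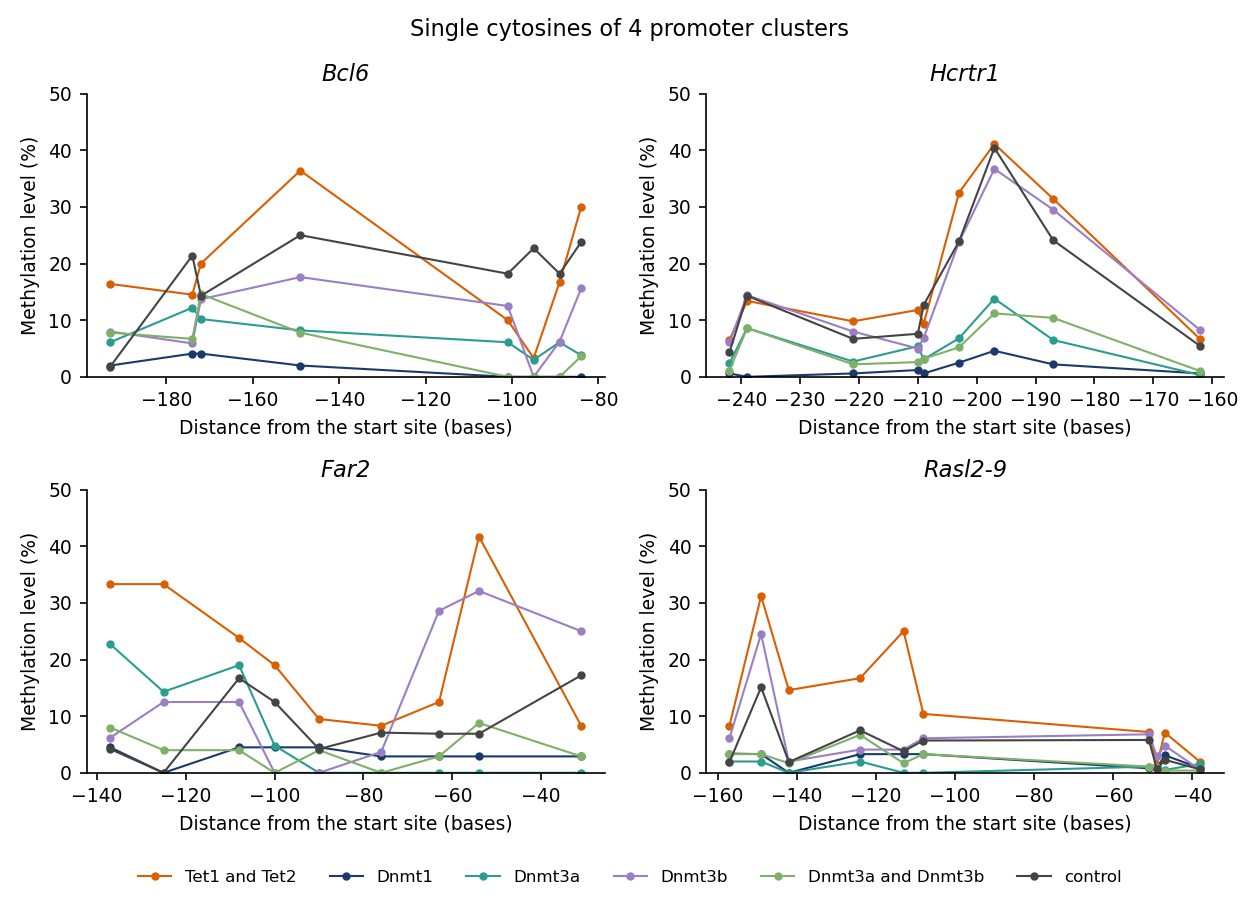
Methylation level of each cytosine (percent, vertical axis) against its distance in bases from the RefSeq gene start (horizontal axis) at Bcl6, Hcrtr1, Far2 and Rasl2-9, with 1 line per library. At Hcrtr1 the peak at position -197 is at 41.1% in the Tet1 and Tet2 knockdown and at 13.8% in the Dnmt3a knockdown, against 40.4% in control.

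Over the 2466 trace-methylated clusters, the mean level was 9.94% ± 0.857 in the Tet1 and Tet2 knockdown, 1.55% ± 0.157 in the Dnmt1 knockdown, 2.95% ± 0.309 in the Dnmt3a knockdown, 8.66% ± 0.376 in the Dnmt3b knockdown, 3.28% ± 0.301 in the double knockdown and 7.34% ± 0.657 in control (SD over autosomes). The Dnmt1, Dnmt3a and double knockdowns were below control and the Tet1 and Tet2 knockdown above it. Medians over clusters were 1.11% (Dnmt1), 2.38% (double), 6% (control) and 8.46% (Tet1 and Tet2). In control, 1924 of the clusters (78.0%) also lay between 3% and 20%, 496 lay below 3% and 46 above 20%. Individual clusters overlapped widely between libraries, with highest values of 40.8% in the Tet1 and Tet2 knockdown, 10.5% in the Dnmt1 knockdown, 22.1% in the Dnmt3a knockdown and 36.0% in control. Levels under 1% were found in 1151 clusters (46.7%) after Dnmt1 knockdown, 512 (20.8%) in the double knockdown and 538 (21.8%) after Dnmt3a knockdown, against 55 (2.23%) in control.

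**Figure D2:**
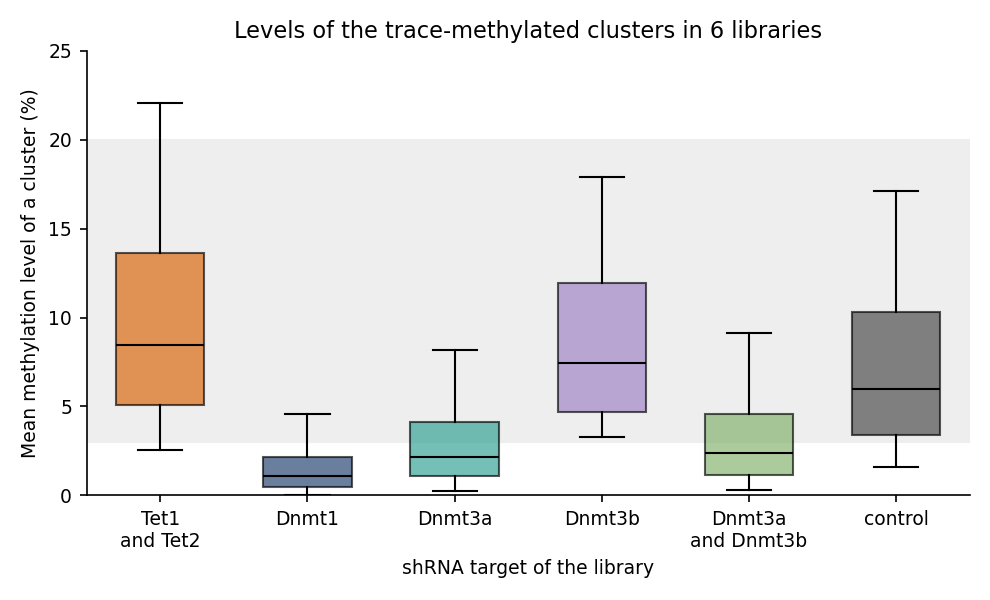
Mean methylation level (percent, vertical axis) of the 2466 trace-methylated clusters in each of the 6 libraries, drawn as a box from the lower to the upper quartile with a line at the median, whiskers to the percentiles 5 and 95, and a grey band for the range of 3 to 20%. The Dnmt1, Dnmt3a and double knockdown medians lie at 1.11%, 2.17% and 2.38%, below the control median of 6%, and the Tet1 and Tet2 median lies at 8.46%.

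The clusters had 5 to 152 cytosines, with a median of 8 over 126 bp, which gave 7.57 listed cytosines per 100 bp. They stood between the 14427 clusters below 3%, with 10.1 per 100 bp, and the clusters from 20% to 80%, with 5.47. Every autosome held some, from 58 on chromosome 16 to 229 on chromosome 7. Their share of all clusters ran from 9.0% on chromosome 12 to 14% on chromosome 7. Positions from here on are in mm9. At the edges of the rule, the clusters nearest to 3% on the inside were chr4:148180793-148180841 and chr8:28362521-28362654, which read 0.64% and 1.8% in control, and those nearest on the outside were chr17:34115615-34115755 and chr5:91360515-91360763, which read 3.13% and 1.91%. Nearest to 20%, those inside were chr11:68369603-68369903 and chr5:89316764-89316891, at 15.9% and 13.8% in control, and those outside were chr5:37260818-37260975 and chr8:15011791-15011837, at 19.2% and 15%.

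Dnmt1 knockdown gave the lowest level of the 6 libraries and left 21.1% ± 1.69 of the control level. The mean difference was -5.79 ± 0.564 percentage points, and the knockdown was lower on all 19 autosomes. Sizes in points depend on the library that chose the clusters: with 3% to 20% required in the double knockdown library instead, the differences from control were 4.28 points (Tet1 and Tet2), -13.4 points (Dnmt1), -9.01 points (Dnmt3a), 2.40 points (Dnmt3b) and -7.89 points (double), all larger than the values given here. The Dnmt1 knockdown was lower at 2397 of the 2466 clusters and higher at 63. A cluster was called where the means differed by at least 5 points and more of its cytosines moved that way than the other. On that rule 1158 trace-methylated clusters (47.0%) were lower, against 30.1% of all clusters. The share over all clusters takes in the 14427 below 3%, of which 14 were called lower. At 20 to 40% in the Dnmt3b library 883 of 892 clusters were called lower. A size in points is limited by the starting level, so clusters at or below 50% of control were counted as well, among those with at least 2% in control. These were 2087 of 2267 trace-methylated clusters (92.1%), against 95.7% of all clusters with that level. At 2 times control or more were 3 (0.132%), against 0.0356% of all, which is 3 clusters. Read at matched levels in the Dnmt3b library, what was left after Dnmt1 knockdown varied little from 3% upwards: 23.3% at 3 to 5%, 20.1% at 15 to 20%, 18.6% at 40 to 60% and 24.4% above 80%. Below the range, at 0 to 3%, it was higher at 29.0% ± 3.51, of a control level of 0.342%. The single cluster called higher, chr4:119032215-119032247, had 5 cytosines, all on the plus strand, and read 8.26% in the Dnmt1 knockdown against 2.34% in control. It is outside the rule for named regions and was singled out after its values were seen, and 0.0266% of all clusters were called higher.

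The Dnmt3a knockdown left 40.2% ± 1.95 of the control level, a difference of -4.39 ± 0.406 points on all 19 autosomes. It was lower at 2396 clusters and higher at 65. Called lower were 869 (35.2%), against 23.7% of all clusters, and 0 were called higher, against 0.0755% of all clusters. Of the 14427 clusters below 3%, 13 were called lower, and of the 892 at 20 to 40%, 847 were. At or below 50% of control were 1699 of the 2267 clusters (74.9%), against 32.6% of all clusters with at least 2% in control. Here the starting level mattered: the share of control left was 35.1% ± 3.98 at 3 to 5%, 37.3% ± 4.48 at 5 to 10%, 42.1% ± 4.75 at 10 to 15% and 43.8% ± 3.48 at 15 to 20%. Above the trace-methylated range it was 52.2% ± 2.13 at 20 to 40%, 63.2% at 40 to 60%, 77.4% at 60 to 80% and 91.3% ± 0.737 above 80%. Below the range, at 0 to 3%, it was 38.4%, of a control level of 0.342%. The Dnmt3a knockdown still read higher than the Dnmt1 knockdown, by 1.4 ± 0.241 points and at 1923 of the 2466 clusters.

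**Figure D3:**
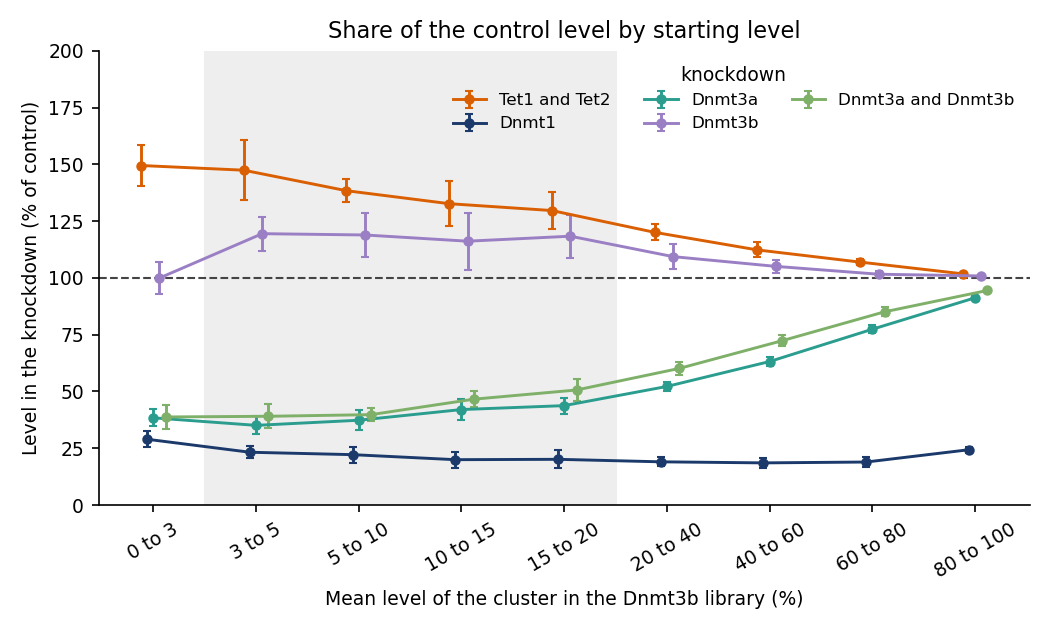
Percent of the control level left in each knockdown (vertical axis, with the SD over autosomes as bars) by the level of the cluster in the Dnmt3b library (horizontal axis, percent). Within the trace-methylated range of 3 to 20% the Dnmt3a knockdown leaves 35.1% to 43.8% and the double knockdown 39.1% to 50.7%, while above 80% they leave 91.3% and 94.5%, and the Dnmt1 knockdown stays between 18.6% and 29.0% at every level.

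The double knockdown of Dnmt3a and Dnmt3b was close to that of Dnmt3a. It left 44.7% ± 1.96 of control, a difference of -4.06 ± 0.413 points on all 19 autosomes, and was lower at 2368 clusters and higher at 94. Called lower were 774 (31.4%), against 19.4% of all clusters. Of the 14427 clusters below 3%, 13 were called lower, and of the 892 at 20 to 40%, 768 were. At or below 50% of control were 1512 (66.7% of the 2267), against 27.3% of all clusters with at least 2% in control. At 2 times control or more were 6 (0.265%), against 0.0949% of all, which is 8 clusters. By matched level it left 39.1% at 3 to 5%, 39.8% at 5 to 10%, 46.6% at 10 to 15% and 50.7% at 15 to 20%, and 94.5% above 80%. Set directly against the Dnmt3a knockdown, the double knockdown was 0.330 ± 0.149 points higher, on 19 autosomes but at 1383 of the clusters with 1059 the other way. Adding the Dnmt3a and Dnmt3b differences gave -3.07 points, from which the double knockdown differed by -0.991 ± 0.433 points. Multiplied, the shares left by the Dnmt3a and Dnmt3b knockdowns gave 47.5%, against 44.7% in the double knockdown. These sums use the Dnmt3b library that chose the clusters. In the 2677 clusters with a level of 3% to 20% in the Tet1 and Tet2 library instead, the same comparison with the sum gave -0.945 ± 0.374 points, with a product of 47.6% against 44.1%.

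The double knockdown called 5 trace-methylated clusters higher (0.203%), against 0.244% of all clusters. They are named here after their values were seen. The one with the largest difference, chr7:51607519-51607559, read 17.0% in the double knockdown against 6.30% in control, and it also read 22.9% in the Tet1 and Tet2 knockdown. The one at chr6:135202910-135203036 read 10.6% in the double knockdown and 4.34% in the Tet1 and Tet2 knockdown, against 1.54% in control. Those at chr4:146034693-146034736, chr4:145426866-145426915 and chr13:95655309-95655353 read 16.3%, 9.96% and 6.79% in the double knockdown, against 8.03%, 4.09% and 1.71% in control. Of the 5, 4 had cytosines on 1 strand only.

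In the Dnmt3b library, which set the choice, the clusters averaged 8.66% against 7.34% in control, or 118% ± 7.40 of the control level. The difference was 1.32 ± 0.421 points, with 1807 clusters higher and 655 lower. Called higher were 221 (8.96%), against 5.81% of all clusters, and called lower were 72 (2.92%), against 2.42% of all clusters. At 2 times control or more were 191 (8.43%), against 2.57%, and at or below 50% were 29 (1.28%), against 2.13%. Nothing is read from these counts. The share of control ran between 116% and 119% in the 4 level ranges from 3% to 20%, was 109% at 20 to 40% and was 102% at 60 to 80%. At 0 to 3% it was 99.9%. With the range set on the Tet1 and Tet2 library instead, the Dnmt3b library read 119% of control, 1.21 points above it. With the range set on its own plus strand and values from the minus strand, it read 117%, 1.29 points above control.

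With Tet1 and Tet2 knocked down, the trace-methylated clusters were higher than in control by 2.60 ± 0.353 points, or 135% ± 4.68 of the control level, on all 19 autosomes. The knockdown was higher at 2080 clusters and lower at 381. Called higher were 428 (17.4%), against 10.5% of all clusters, and called lower were 18 (0.730%), against 1.03%. The share over all clusters takes in the 14427 below 3%, of which 18 were called higher. At 20 to 40% in the Dnmt3b library 451 of 892 clusters were called higher, and at 40 to 60% 433 of 770. At least a doubling of a control level of 2% or more was read at 291 of the 2267 clusters (12.8%), against 4.04% of all clusters with that level, and 27 (1.19%) were at or below 50% of control, against 1.07%. A cluster above 50% in control cannot double, so the share over all clusters is held down by that ceiling, for this and the other knockdowns. The share of control went down as the matched level went up, from 147% ± 13.2 at 3 to 5% through 138% ± 5.11 at 5 to 10% and 133% ± 9.88 at 10 to 15% to 130% ± 8.31 at 15 to 20%. Further up it was 120% at 20 to 40%, 112% at 40 to 60% and 102% above 80%, of a control level of 87.6%. Below 3% it was 149% of a control level of 0.342%. In points the gain went the other way up to 60%. It was 0.169 points at 0 to 3%, 1.55 at 3 to 5%, 4.35 at 15 to 20% and 5.92 at 40 to 60%. Above 80% it was 1.58 points. The Tet1 and Tet2 library read above the Dnmt3a library at 2434 of the 2466 clusters, by a mean of 6.99 ± 0.601 points.

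Each strand of a cluster is read from its own molecules, which repeats the measurement within a library but not the culture. In the 1352 clusters where each strand had at least 3 cytosines, the Dnmt3a knockdown differed from control by -4.22 points on the plus strand and by -4.28 points on the minus strand. The Dnmt1 knockdown differed by -5.70 and -5.69 points, the double knockdown by -3.98 and -3.94 points, and the Tet1 and Tet2 knockdown by 2.47 and 2.37 points. Of the 1276 clusters lower on the plus strand after Dnmt3a knockdown, 1211 were lower on the minus strand too. For Dnmt1 these were 1221 of 1292, and for the double knockdown 1163 of 1254. Of 1074 clusters higher on the plus strand in the Tet1 and Tet2 knockdown, 884 were higher on the minus strand. Choosing clusters by the plus strand of the Dnmt3b library and reading the minus strand, an alternative added after the data were seen, gave 1346 clusters. There the Tet1 and Tet2 knockdown stood at 131% of control, Dnmt1 at 21.5%, Dnmt3a at 43.7% and the double knockdown at 48.6%.

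Methylation was spread over most cytosines of a cluster rather than held by a single one. In the typical cluster 100% of the cytosines had a level above 0 in control, in the Dnmt3b and in the Tet1 and Tet2 libraries, against 75% after Dnmt3a knockdown and 49.5% after Dnmt1 knockdown. Of the 24885 cytosines, 11.6% were listed at 0 in the Tet1 and Tet2 knockdown, 49.2% in the Dnmt1 knockdown, 31.9% in the Dnmt3a knockdown and 29.4% in the double knockdown, against 14.8% in control. How many of these zeros come from few reads cannot be told without depth. The highest cytosine of a cluster had a median of 19.6% in the Tet1 and Tet2 knockdown, 3.7% in the Dnmt1 knockdown and 6.2% in the Dnmt3a knockdown, against 14.3% in control. Clusters were even where no cytosine reached 30% in the Dnmt3b library (2007 clusters), and patchy where 1 reached at least 50% (58 clusters). After Dnmt3a knockdown even clusters kept 37.9% of control and patchy ones 52.3%, and in the double knockdown they kept 42.9% and 57.8%. Patchy clusters also started higher, at 12.9% against 6.22% in control. At a matched level of 10 to 15% in the Dnmt3b library, control read 10.4% in even and 10.9% in the 22 patchy clusters. The Dnmt3a knockdown kept 40.4% and 53.3% of these. At 15 to 20%, with 14.4% and 15.1% in control, it kept 39.1% in even and 52.2% in the 31 patchy clusters. The Dnmt1 knockdown left 21.2% in even and 19.7% in patchy clusters.

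Bases next to the CpG went with differences among cytosines of the clusters. Over the 5451 cytosines at the MspI site CCGG, which lie at fragment ends, the Dnmt3a knockdown kept 48.5% of control, and over the other 19434 it kept 39.1%. For the double knockdown these shares were 48.2% and 44.9%, and for Dnmt1 24.8% and 21.4%. Away from MspI sites, CpGs followed by T kept 35.2% of control after Dnmt3a knockdown and those followed by A kept 41.4%. By quartile of cytosine density, the Dnmt3a knockdown left 39.5% of control in the densest clusters and 39.6% in the sparsest. The Tet1 and Tet2 knockdown stood at 133% and 140%. The sparsest quartile started higher in control, so these shares are not at a matched level. At 5 to 10% in the Dnmt3b library, the Dnmt3a knockdown left 35.05%, 37.2%, 39.4% and 37.8% from the sparsest to the densest quartile. The Tet1 and Tet2 knockdown stood there at 145% in the sparsest and 133% in the densest.

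The commonest neighbour of a trace-methylated cluster was one below 3%, which is also the commonest kind overall. Of the 1042 with another cluster within 1 kb, 578 (55.5%) had one below 3% there, 389 had another trace-methylated cluster, 140 had one from 20% to 80% and 3 had one above 80%. Of the 9086 clusters below 3% with any neighbour within 1 kb, 95.4% had one of their own kind there. Of the 170 such clusters above 80%, 1.76% had a trace-methylated one. In the 560 trace-methylated clusters with a cluster below 3% on a single side, the cytosines were divided at the middle into those near to it and those far from it. The far side read 10.9% and the near side 7.10% in the Tet1 and Tet2 knockdown, 1.32% and 0.943% in the Dnmt1 knockdown, 3.73% and 2.15% in the Dnmt3a knockdown, 3.46% and 2.09% in the double knockdown, and 8.34% and 5.25% in control. The far side was higher in 71.8% of these clusters in the Tet1 and Tet2 knockdown, 66.2% in the Dnmt3a knockdown and 70.2% in control (393 clusters), and in 52.5% in the Dnmt1 knockdown, where many cytosines are listed at 0. Clusters beside one below 3% kept 16.6% of control after Dnmt1 knockdown, the 464 with other neighbours only kept 20.8%, and the 1424 with no neighbour within 1 kb kept 22.9%. After Dnmt3a knockdown these shares were 43.2%, 42.9% and 38.2%.

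**Figure D4:**
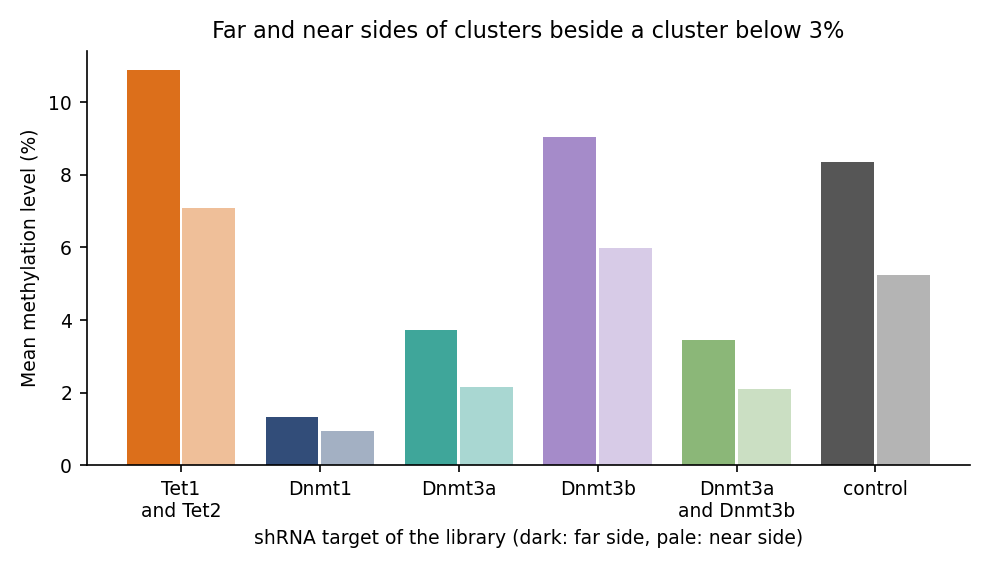
Mean level (percent, vertical axis) of the far side (dark bars) and near side (pale bars) of the 560 trace-methylated clusters that have a cluster below 3% on a single side, by library. The far side is higher in each library, at 3.73% and 2.15% in the Dnmt3a knockdown and at 8.34% and 5.25% in control.

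At promoters, trace methylation was less common than its absence. Of the trace-methylated clusters 9.45% were placed in a promoter window, against 26.2% of clusters below 3%, 2.31% of those from 20% to 80% and 0.462% of those above 80%. Placement needed at least 5 cytosines in the window, and the classes differ in size. The median was 11 cytosines below 3%, 8 in trace-methylated clusters, and 6 both from 20% to 80% and above 80%. How far this shapes the shares placed was not tested. The 233 placed clusters belong to 240 gene symbols, since some windows overlap. They read 8.19% in the Tet1 and Tet2 knockdown, 1.09% in the Dnmt1 knockdown, 2.33% in the Dnmt3a knockdown, 7.55% in the Dnmt3b knockdown and 2.51% in the double knockdown, against 5.69% in control. The Dnmt3a knockdown was lower at 225 of the 233, the Dnmt1 knockdown at 225 and the double knockdown at 221, and the Tet1 and Tet2 knockdown was higher at 200. As shares of control, promoter clusters and those placed at no promoter kept 19.1% and 21.3% after Dnmt1 knockdown, 40.9% and 40.2% after Dnmt3a knockdown, and 44.1% and 44.8% in the double knockdown. The Tet1 and Tet2 knockdown stood at 144% of control in promoter clusters and at 135% in those placed at no promoter. In control these clusters started at 5.69% and 7.51%, and the shares were not compared at matched levels. No RNA was measured in these libraries, so nothing is known here of the genes' expression.

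Among the gene families, described by lists written with the names of the placed genes in view, developmental transcription factors had 58 placed clusters, of which 13 (22.4%) were trace-methylated, 43 were below 3% and 2 were above 20%. Over all placed clusters the trace-methylated share was 5.69%. The shares of this and the following families describe lists made with these data in view, and no enrichment was tested. The lists are not complete: Bcl6 and Irf4, for example, are in none. All 13 were lower in the Dnmt1, Dnmt3a and double knockdowns, and 12 were higher in the Tet1 and Tet2 knockdown. Among all 2466 trace-methylated clusters 97.2%, 97.2% and 96.0% were lower in these 3 knockdowns and 84.3% were higher in the Tet1 and Tet2 knockdown, shares against which the counts of this and the following families are to be read. Lhx3, which specifies motor neurons and pituitary cells, read 23.3% in the Tet1 and Tet2 knockdown, 2.73% in the Dnmt1 knockdown, 6.69% in the Dnmt3a knockdown, 18.7% in the Dnmt3b knockdown and 8.57% in the double knockdown, against 17.2% in control. Hoxa5, a Hox gene of body patterning, read 13.8%, 0%, 2.46%, 6.54% and 3.17% in that order, against 13.2% in control. At Hoxa5 all 7 cytosines were thus listed at 0 in the Dnmt1 library. Foxa2, a regulator of endoderm and floor plate, read 11.5% in the Tet1 and Tet2 knockdown and 2.48% in the Dnmt3a knockdown, against 9.27% in control. Prdm12, needed for pain-sensing neurons, was the only one of the 13 below control in the Tet1 and Tet2 knockdown, at 13.4% against 20.2%, and it read 7.87% in the Dnmt3a knockdown. Gata2, a factor of blood stem cells, stood at 6.73% in the Tet1 and Tet2 knockdown and 2.78% in the Dnmt3a knockdown, against 6.46% in control. The other 8 were En1, Vax1, Hoxa11, Otp, Neurog3, Helt, Casz1 and Npas1, none of which was above 4.38% in control. The Wnt ligand genes Wnt1 and Wnt5b read 1.60% and 2.01% in the Dnmt3a knockdown, against 5.00% and 3.83% in control.

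Cell surface receptors for transmitters, peptides and lipids had 28 placed clusters, 12 of them (42.9%) trace-methylated and the other 16 below 3%. The share over all placed clusters was 5.69%, and the list was made with the placed names in view. All 12 were lower in the Dnmt1, Dnmt3a and double knockdowns, with 37.7% of control left after Dnmt3a knockdown and 16.3% after Dnmt1 knockdown, and 11 were higher in the Tet1 and Tet2 knockdown. Tacr1, the substance P receptor, read 18.4% in the Tet1 and Tet2 knockdown, 1.88% in the Dnmt1 knockdown, 6.24% in the Dnmt3a knockdown, 18% in the Dnmt3b knockdown and 4.30% in the double knockdown, against 15.7% in control. Oxtr, the oxytocin receptor, read 15.2% in the Tet1 and Tet2 knockdown and 4.73% in the Dnmt3a knockdown, against 10.6% in control. Htr1f, a serotonin receptor, was the one below control in the Tet1 and Tet2 knockdown, at 5.10% against 7.56%. Drd2, a dopamine receptor, was the lowest in control at 1.95%, against 0.613% in the Dnmt3a knockdown and 2.60% in the Tet1 and Tet2 knockdown.

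Genes of germ cells, meiosis and sperm had 29 placed clusters, 11 of them (37.9%) trace-methylated, 10 below 3% and 8 above 20%. The share over all placed clusters was 5.69%, and this list too was made with the names in view. Sox30 stands for more than a single cluster among the 11. The 11 were all lower in the Dnmt1 knockdown, and 9 were lower in the Dnmt3a knockdown. Terb1, which ties telomeres to the nuclear envelope in meiosis, read 14.4% in the Tet1 and Tet2 knockdown and 1.93% in the Dnmt3a knockdown, against 8.04% in control. Meioc, a regulator of meiotic prophase, read 9.15% in the Tet1 and Tet2 knockdown and 3.98% in the Dnmt3a knockdown, against 8.41% in control. Tdrkh, a piRNA pathway gene, read 8.36% in the Tet1 and Tet2 knockdown and 3.06% in the Dnmt3a knockdown, against 2.04% in control. Tekt1, a structural protein of sperm tails, was at 8.30% in the Dnmt1 knockdown, 0.186% in the Dnmt3a knockdown and 3.0% in the double knockdown, against 10.5% in control, so that among the knockdowns the Dnmt1 library stood nearest to control there. The Terb1, Tdrkh and Tekt1 clusters each had 7 cytosines, all on a single strand. Of the 6 placed clusters at glutathione and xenobiotic enzymes 3 were trace-methylated. Gstm5, a glutathione transferase, read 26.6% in the Tet1 and Tet2 knockdown, 5.14% in the Dnmt1 knockdown and 8.77% in the Dnmt3a knockdown, against 17.7% in control, and Gstp1 of the same class read 14.5%, 0.550% and 6.35%, against 12.1%. Solute carriers, membrane transporters of small molecules, had 6 of 67 clusters trace-methylated (8.96%), with all 6 lower in the Dnmt1, Dnmt3a and double knockdowns.

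Class I histocompatibility genes, which present peptides to T cells, had 3 of 5 placed clusters trace-methylated. H2-K1 read 3.10% in the Dnmt3a knockdown and 0.240% in the double knockdown, against 3.28% in control. H2-Q4 read 7.0% and 4.24%, against 9.22%, and H2-Q10 read 0.929% and 1.46%, against 2.78%. Together these 3 kept 72.2% of control in the Dnmt3a library and 38.9% in the double one. The H2-K1 and H2-Q4 clusters each had 5 cytosines, all on a single strand. These genes have close copies, between which reads of similar sequence cannot always be told apart, and how the authors treated such reads is not given in the sources used here.

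**Figure D5:**
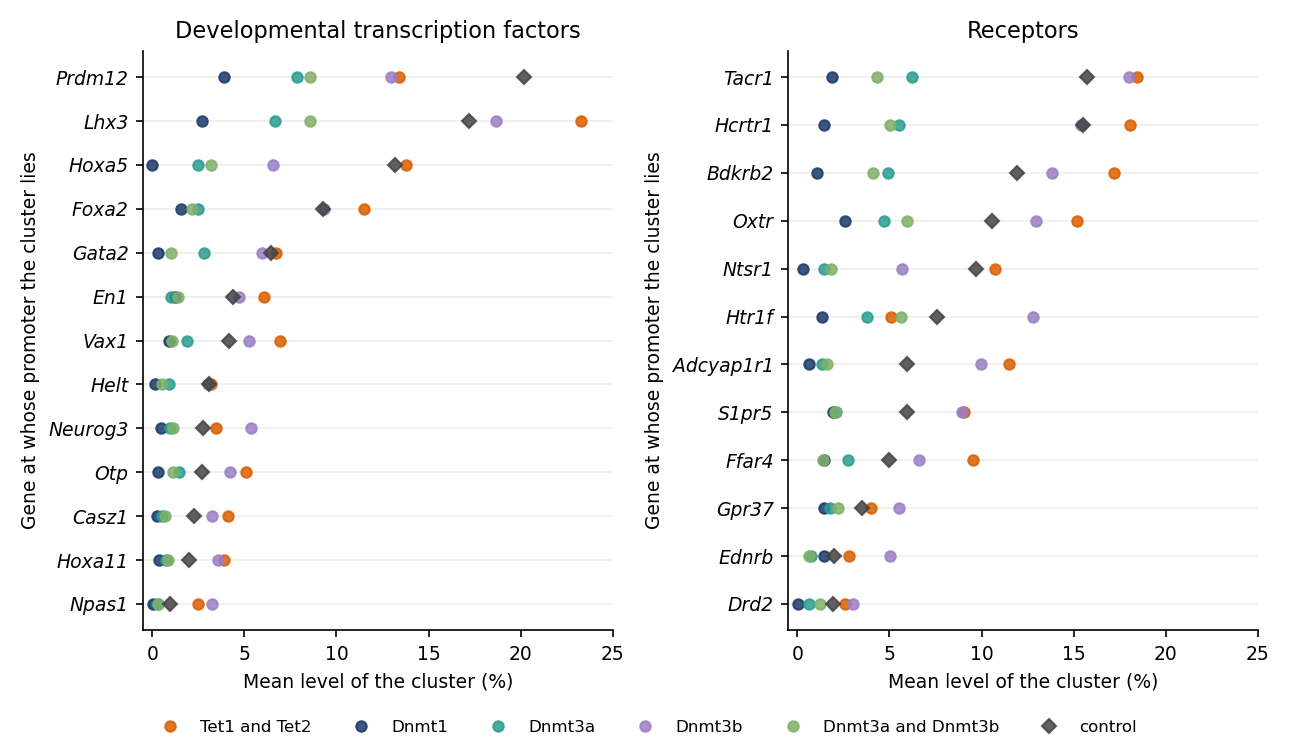
Mean level (percent, horizontal axis) of the trace-methylated clusters at promoters of 13 developmental transcription factors (left) and 12 receptors (right), 1 row per gene, with a circle for each knockdown and a diamond for control. At Lhx3 the Tet1 and Tet2 knockdown reads 23.3% and the Dnmt3a knockdown 6.69%, against 17.2% in control, and at Prdm12 and Htr1f the Tet1 and Tet2 circle lies left of the control diamond.

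Away from genes matched here, regions were named by a rule of size: up to 3 with the largest fall and gain for a knockdown, among called clusters where each strand had at least 3 cytosines and both strands moved alike. Being picked for size, they show extremes of these libraries. For Dnmt1, of 612 eligible, they were chr8:27096829-27096945 (1.34% against 27.5% in control), chr1:95723083-95723215 (4.5% against 27.1%) and chr7:52625269-52625415 (2.44% against 23.5%). The first and second also led for Dnmt3a, at 9.67% and 7.96% against the same control values, with chr12:67384864-67385006 next at 5.62% against 23.2%. The chromosome 12 region read 18.1% in the double knockdown, well above its Dnmt3a value. For the double knockdown they were chr8:27096829-27096945 (8.49% against 27.5%), chr5:117691051-117691184 (4.25% against 21.7%) and chr8:73268350-73268451 (1.51% against 18.3%). Gains in the Tet1 and Tet2 knockdown, of 183 eligible, were largest at chr6:54435886-54435993 (30.9% against 11.2% in control), chr7:135148012-135148116 (23.3% against 5.02%) and chr6:90500391-90500475 (24.0% against 8.97%). The falls there, of 5 eligible, were chr1:186634830-186635000 (12.9% against 22.0%), chr17:39984390-39985745 (4.2% against 11.5%) and chr6:48579389-48579461 (7.34% against 14.4%).

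The chromosome 17 region is the longest of all, with 152 cytosines over 1356 bp, and its pattern differed from that of the means over the 2466 clusters. It read 4.2% in the Tet1 and Tet2 knockdown, 4.34% in the Dnmt3a knockdown, 4.38% in the Dnmt3b knockdown and 4.99% in the double knockdown, but 10.5% in the Dnmt1 knockdown, against 11.5% in control. Control and the Dnmt1 knockdown were thus the high libraries there, and the 10.5% was the highest Dnmt1 value of the 2466 clusters. How multiply mapping reads were treated is not given, so whether the reads of this region come from a single place in the genome is not known.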

How the data were processed

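RRBS libraries of E14 mouse embryonic stem cells were cut with MspI, bisulfite converted and sequenced on an Illumina HiScanSQ, per the labels' protocols. CASAVA 1.8, Bismark 0.10.1 and build mm9 are named per the submitters' processing notes. No coverage minimum is given in the sources used here, nor how duplicate or multiply mapping reads were treated. The deposited files give a methylation fraction from 0 to 1 for each CpG cytosine on 1 strand, rounded by the authors to 3 decimals, with 5 bases of context and no coverage. The libraries listed between 445016 and 604227 cytosines, and 67 to 135 without a level were left out. Depth is unknown, and cytosines weigh alike whatever their coverage.

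Fractions were turned into percent and joined by position and strand in pandas 2.3.3 (Python 3.11.15), with means from NumPy 2.4.6 and figures from matplotlib 3.10.9. Clusters had at least 5 cytosines with gaps of at most 100 bp, and a cluster's level is the mean over its cytosines. Each library is its own group, set by its treatment label. The share of control left is the ratio of mean levels. The steps were tested on simulated data. The members, the gene lists and the thresholds were chosen with earlier results of these data known. The rule for named regions took, for each knockdown except Dnmt3b, up to 3 falls and 3 gains among called clusters where each strand had at least 3 cytosines and moved alike, plus the clusters nearest to the edges of the range. That rule held genes to an mm9 annotation, and none was used here. Genes were therefore placed by letters instead, without converting coordinates, and those named were chosen after their values were seen. Of the placed clusters, 4077 of 4094 (99.6%) had another placed cluster within 5 Mb with the same displacement between builds to within 1 kb. A median of 37 bases was matched, and 15 at the least. The 3 clusters that fitted several positions were left out. The promoter table has no window on chromosome 18.

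Alternatives were other cluster sizes, gaps, ranges, libraries for setting the range, sizes of a call and summaries. The strand split and the omission of MspI sites were added after the data were seen.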

Additional observations from a re-analysis of the deposited data

How the results depend on the processing

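Of 122 values recomputed under alternatives for 21 results, 72 stayed within the limit used, 50 moved further and 0 changed direction. The limit was the SD over autosomes for differences and shares. For counts, which have no direction, it was a fixed ratio to the main count and no measure of spread. A count could therefore change much and stay within it, as with Dnmt1 calls at 3 points, with 1664 clusters lower against 1158 in the main setting. No paired analysis was possible because each group has 1 library, and for the same reason no replicate could be left out. In the 50 that moved, the cause was not tested except that fewer or larger sets of clusters change a count by construction. Calls at 3 points gave 55 clusters lower and 907 higher in the Tet1 and Tet2 knockdown, 1417 lower and 2 higher for Dnmt3a, 152 lower and 543 higher for Dnmt3b, and 1351 lower and 9 higher in the double knockdown. Calls at 10 points gave 5 lower and 81 higher in the Tet1 and Tet2 knockdown, 419 lower and 0 higher for Dnmt1, 168 lower for Dnmt3a, 9 lower and 20 higher for Dnmt3b, and 137 lower and 1 higher in the double knockdown. With at least 10 cytosines in a cluster, 5 were lower and 98 higher in the Tet1 and Tet2 knockdown, 405 lower and 0 higher for Dnmt1, 280 lower for Dnmt3a, 11 lower and 55 higher for Dnmt3b, and 251 lower and 0 higher in the double knockdown, and mean differences were 2.07 points (Tet1 and Tet2), -3.87 points (Dnmt3a) and -3.64 points (double). With at least 3 cytosines the Dnmt3a difference was -4.80 points. A range of 5 to 15% gave 264 higher in the Tet1 and Tet2 knockdown, 560 lower for Dnmt3a, 130 higher for Dnmt3b, and 497 lower and 2 higher in the double knockdown. With the range set on the Tet1 and Tet2 library, differences were -4.99 points (Dnmt1, with 2 clusters called higher), -3.80 points (Dnmt3a) and -3.54 points (double). With it set on the double knockdown library they were 4.28 points (Tet1 and Tet2), -13.4 points (Dnmt1), -9.01 points (Dnmt3a), 2.40 points (Dnmt3b) and -7.89 points (double). As the median of the ratio within a cluster, the share of control left was 17.9% (Dnmt1), 37.3% (Dnmt3a) and 41.0% (double). The strand split left 43.7% for Dnmt3a and 48.6% in the double knockdown, and omitting MspI sites left 38.0% for Dnmt3a. The double knockdown was 0.330 points above Dnmt3a in the main setting. It was 0.266 points above with the range set on the Tet1 and Tet2 library. With at least 10 cytosines it was 0.236 points above, and with each cytosine counted once 0.315 points. This direct difference was not recomputed under the other alternatives. With the range set on the double knockdown library, the values of -7.89 and -9.01 points lie further apart than that.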

Other observations

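Chromosome X, kept out of the clusters above, had 458 clusters of the same kind, 45 of them (9.83%) with a level of 3% to 20% in the Dnmt3b library. Their mean level was 9.93% in the Tet1 and Tet2 knockdown, 1.89% in the Dnmt1 knockdown, 3.06% in the Dnmt3a knockdown, 8.63% in the Dnmt3b knockdown and 3.96% in the double knockdown, against 7.55% in control. The Dnmt1 knockdown was lower at 43 of the 45, the Dnmt3a knockdown at 44 and the double knockdown at 43, and the Tet1 and Tet2 knockdown was higher at 39. As shares of control these were 25%, 40.5%, 52.5% and 132%.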
